A study of Mus musculus with 2 samples.

Results

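Mature neutrophils with few transcripts of the chemokines Ccl3 and Ccl4 were examined in pancreatic tumours of KPPC mice given vehicle or takinib. They were picked barcode by barcode from UMI counts (a unique molecular identifier tags 1 captured transcript). A barcode needed 1000 UMIs or more, 500 or more genes and no more than 20% mitochondrial UMIs, and S100a8 and S100a9 together made up at least 3% of its UMIs. It also held fewer than 5 UMIs of Ccl3 plus Ccl4, fewer than 10 of the secondary granule genes Camp, Ngp and Ltf, and fewer than 10 of the primary granule genes Elane, Mpo and Prtn3. At most 2 UMIs of C1qa, C1qb and C1qc were allowed, and none of Cd79a, Cd3e or Epcam. The rule thus used measured levels of 16 genes, whose values describe the choice and are not results. It found 2931 of the 36662 barcodes past the 3 quality filters, 71 of 9872 in vehicle and 2860 of 26790 in takinib.

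The study compared tumours of 6-week-old KPPC mice treated for 14 days with vehicle or with 50 mg/kg takinib, an inhibitor of the kinase TAK1. The labels give the name KPPC without alleles, Cre driver or strain. Tumours were minced, digested with collagenase and DNase and passed through a strainer, and no sort is mentioned. There was 1 library per treatment, and the number of mice behind each is not stated, so no difference between treatments has a replicate check, no test was run and no p-value is given.

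Neutrophils mature in the bone marrow through stages that make primary, then secondary, then tertiary granule proteins, and enter blood with high Cxcr2, the receptor for CXCL1 and CXCL2, and Csf3r, the receptor for G-CSF. S100a8 and S100a9 encode the subunits of calprotectin, an abundant protein of the neutrophil cytosol. In tissue, activation through toll-like, IL-1 and TNF receptors passes through TAK1 to NF-kB and AP-1, and Ccl3, Ccl4, Cxcl2 and Tnf are among the genes it turns on.

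Library and treatment cannot be told apart, since everything else that differed between the 2 libraries moved with the drug. The vehicle matrix listed 704261 barcodes, empty droplets included, while no takinib barcode had under 500 UMIs. Vehicle held cells of both sexes, with 14 of the 71 neutrophils holding Y-linked UMIs, 3 holding Xist and 54 neither, whereas 763 of the 2860 takinib neutrophils held Xist and 0 held a Y-linked UMI. The chosen neutrophils had median depths of 1249 UMIs in vehicle and 1539 in takinib, with medians of 658 and 668 genes. Their median mitochondrial share was 13.1% in vehicle and 0.950% in takinib. Summed over cells, this left 94925 UMIs in vehicle and 5284316 in takinib, so that precision was set by the vehicle sums. Levels below are CPM, the summed counts of a gene divided by all UMIs of the same cells and brought to a common scale, and intervals in square brackets are at 95% and cover counting error only. The libraries shared 400 of the kept barcodes by sequence, and 0 of these were among the chosen cells of both.

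The label was checked against 5 mature neutrophil markers, of which only Csf3r, Cxcr2 and Retnlg are independent of the rule. Csf3r (ENSMUSG00000028859, a protein-coding gene at chr4:126024550-126044440, plus strand, GRCm38 with GENCODE M21) stood at 527 CPM [391, 694] in vehicle and 1007 in takinib. Cxcr2 (chr1:74153989-74161246, plus strand) stood at 453 CPM [328, 610] and 695. In cells of other types, chosen for at least 2 UMIs of Cd79a, Cd3e or Epcam and little S100a8 and S100a9, the same genes were at 6.82 and 2.88 CPM in vehicle and at 52.6 and 27.2 in takinib. In takinib, where the gap was smaller, the receptors were 19.1 and 25.5 times higher in the chosen cells than in other cells, so the summed counts of both libraries match the label. Retnlg was at 1327 CPM in vehicle and 8432 in takinib, and at 0.874 and 242 in other cells. Only 11 of the 71 vehicle cells held it. Cell by cell the fit was looser in vehicle: 32.4% of the 71 cells, at a median of 1249 UMIs, held no UMI of any of the 3 markers, against 5.07% of the 2860 takinib cells. The same share among other cell types was 95.1% and 58.1%, at deeper medians of 5111 and 6690 UMIs.

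Neutrophils of this kind made up 0.719% [0.562, 0.906] of kept vehicle barcodes and 10.7% [10.3, 11.1] of kept takinib barcodes, a log2 ratio of 3.89. The S100a8- and S100a9-rich barcodes as a whole were 134 and 12578 in number, 1.36% and 47.0% of the kept barcodes. Within that population the order was the opposite: the chosen cells were 53.0% [44.2, 61.7] of it in vehicle and 22.7% [22, 23.5] in takinib. Setting them against mature neutrophils with at least 5 Ccl3 and Ccl4 UMIs, called chemokine-rich here, gave the same picture. The low-chemokine kind was 71 of 94 mature cells in vehicle, 75.5% [65.6, 83.8], and 2860 of 9305 in takinib, 30.7% [29.8, 31.7]. Takinib cells were the deeper ones, and the part of depth in these shares was not tested. With every barcode first thinned to 1000 UMIs the chosen cells were 0.902% and 17.0% of kept barcodes. Of the S100-rich barcodes, 27 in vehicle and 2550 in takinib were set aside for complement C1q genes or the lineage genes. The number of cells near the limits was modest in takinib, with 262 cells at 4 Ccl3 and Ccl4 UMIs just inside and 227 at 5 just outside, and 3 and 4 in vehicle. Precursors with at least 10 Elane, Mpo and Prtn3 UMIs numbered 0 in vehicle and 86 in takinib. They were 0% [0, 2.72] and 0.684% [0.547, 0.844] of the S100-rich barcodes, so the vehicle count is too small to show a difference. At the S100 limit, 17 vehicle cells lay between 3% and 4% and 18 between 2% and 3%, against 213 and 269 in takinib.

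**Figure D1:**
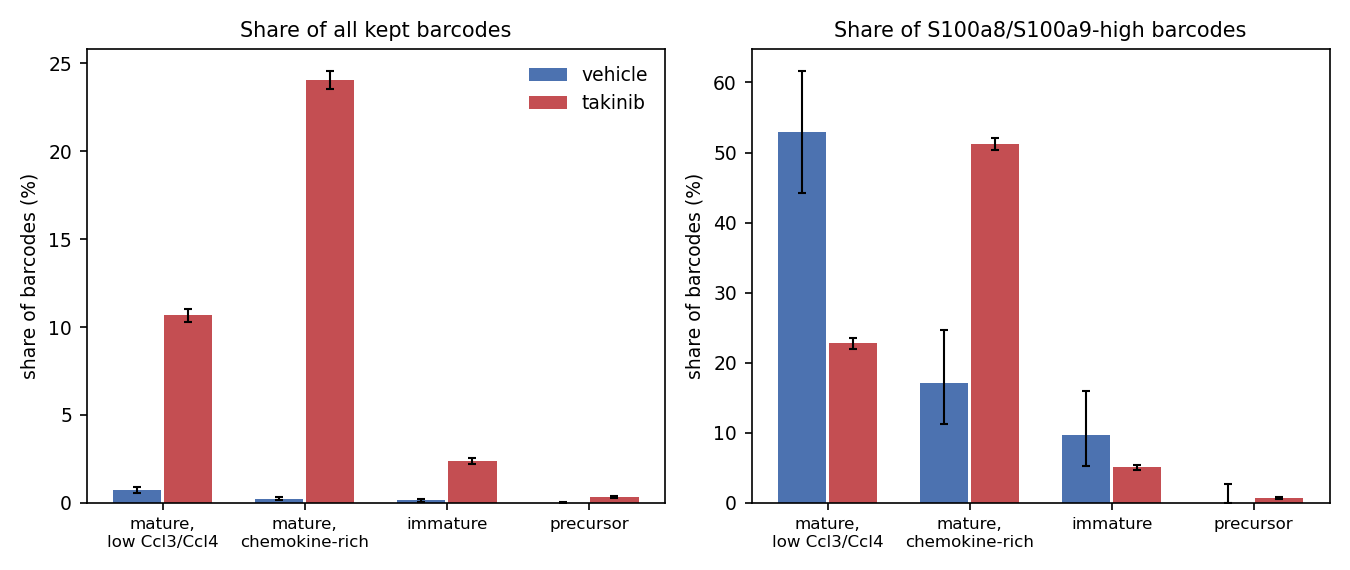
Share of barcodes (%, linear axis) in each of 4 neutrophil gates, of all kept barcodes (left) and of the barcodes rich in S100a8 and S100a9 (right), in vehicle (blue) and takinib (red). Bars are single libraries and error bars are exact 95% binomial intervals; the low-Ccl3/Ccl4 gate holds 0.719% of kept barcodes in vehicle and 10.7% in takinib, but 53.0% and 22.7% of the S100-rich ones.

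Takinib and vehicle cells of this kind were compared first. The takinib cells held more transcripts of Retnlg, Wfdc17, Slpi, Cd14, Ifitm1, Saa3 and Cxcl2, and fewer of Siglecf, Ltc4s, Cd177, Cebpe, Il1a and Csf1. Chemokine-rich cells, 23 of them in vehicle, differed in the same direction in all of these genes but Cebpe. They held Saa3 at 126 CPM in vehicle and 21480 in takinib, Slpi at 94.2 and 5375, and Siglecf at 534 and 15.4. Il1a was nearer to equal in them, at 785 and 557, and Cebpe had 0 counts in vehicle and 7.88 CPM in takinib. Most of these differences were thus not particular to the low-chemokine cells. In the low-chemokine cells, of 3463 genes with at least 50 CPM in either library, 323 (9.33%) were at least 2-fold higher in takinib and 754 (21.8%) at least 2-fold lower. For this, 10 CPM was added to both libraries before the log2 ratio of takinib to vehicle, so that ratios of low genes are understated. The median ratio over these genes was -0.40, and with that median set to 0 the split turned round, to 564 higher and 379 lower. At 50 CPM a vehicle gene rests on about 5 counts; among genes of at least 200 CPM in either library 127 were higher and 117 lower. Ratios of single genes and of lists are therefore given unshifted and should be read against the median of -0.40. They are log2 values unless called folds. Counts of genes past 2-fold in a list should likewise be read against the 9.33% higher and 21.8% lower of all genes.

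The lists of mature neutrophil genes came first. Retnlg, which encodes a small secreted protein of neutrophils (chr16:48872621-48874496, plus strand), was at 1327 CPM [1106, 1580] in vehicle and 8432 in takinib, a log2 ratio of 2.66 [2.41, 2.92]. Vehicle cells were few and uneven in this: 11 of 71 held Retnlg UMIs, and 1 cell gave 47 of the 126, whereas 2229 of 2860 takinib cells held it. Without the top cell of each library the ratio was 3.30. Among 20 other mature neutrophil genes, 13 were at least 2-fold higher and 1 at least 2-fold lower, with a median ratio of 1.96. Wfdc17 (chr11:83703991-83706268, plus strand), a small whey-acidic-protein-domain gene of activated phagocytes, was at 516 CPM [382, 682] in 17 of 71 vehicle cells and 13640 CPM in 2784 of 2860 takinib cells. Mmp8, the neutrophil collagenase, had 1 count in vehicle, 10.5 CPM, against 469 CPM in takinib, a fold of 44.5 [7.99, 1760]. Going the other way, Cd177, a surface protein of neutrophils, was at 643 CPM [491, 825] in vehicle and 182 in takinib, a log2 ratio of -1.76. Mmp9, the gelatinase of tertiary granules, was nearer to equal, at 1264 CPM [1048, 1512] and 793. Cd177 was the 1 gene of this list lower past 2-fold. Immature neutrophils, defined below by at least 10 Camp, Ngp and Ltf UMIs, held Retnlg at 7617 CPM in vehicle (13 cells) and 8290 in takinib. They held Mmp8 at 589 and 704 CPM, above the chosen cells of both libraries. Higher Retnlg or Mmp8 thus does not mark greater maturity here.

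Granule genes that the rule had not used gave like counts in both lists. Of 6 secondary granule genes 4 were at least 2-fold higher and 1, Cd177 again, lower, with a median ratio of 1.39. Lcn2, an iron-scavenging lipocalin (chr2:32384633-32388252, minus strand), was at 864 CPM [687, 1072] in vehicle and 7848 in takinib, and at 221 and 2411 CPM in other cell types of the same libraries. Lyz2, lysozyme, was at 2434 CPM [2130, 2768] in vehicle and 1384 in takinib. Other cell types held it at 1735 and 1326 CPM, so the takinib value was near that of other cells. Of 10 genes of tertiary granules and the NADPH oxidase, 4 were higher, among them the sheddase Adam8 (42.1 and 194 CPM), and 1 lower, the oxidase subunit Ncf1 (990 and 430 CPM).

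Surface receptors and sensors were described next. Of 16 chemoattractant and cytokine receptors 4 were at least 2-fold higher and 0 lower, with a median of 0.60. Fpr1, the formyl peptide receptor, had 2 counts in vehicle, 21.1 CPM, against 431 CPM, a fold of 20.5 [5.66, 169]. Tnfrsf1b, a TNF receptor, was at 63.2 and 241 CPM. Csf2rb, the shared receptor chain for GM-CSF and IL-3, was at 558 CPM [418, 730] and 344, a ratio of -0.68. Pattern recognition gave 7 of 11 genes higher and 0 lower, and a median of 1.63 over 16 genes, which became 0.62 when genes without a vehicle count were set at their bound of 3 counts. Cd14, the co-receptor for bacterial lipopolysaccharide, was at 253 CPM [162, 376] in 17 of 71 vehicle cells and 2967 in 2514 of 2860 takinib cells. Clec4e, a receptor for damaged cells and fungal glycolipids, was at 232 CPM [145, 351] and 1216. Tlr4 itself differed within counting error, at 94.8 CPM [43.4, 180] and 81.6. The adhesion list had 4 of 10 genes higher and 1 lower: Selplg, the ligand of P-selectin, was at 211 and 655 CPM, while the integrin Itgax was at 105 and 29.1.

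Genes linked to suppression of T cells by neutrophils, often named PMN-MDSC genes, were higher in 8 of 13 cases and lower in 0, with a median of 1.2. Nos2, inducible nitric oxide synthase, had 0 counts in vehicle and 245 CPM in takinib, at least 7.75-fold higher when vehicle is set at 3 counts. The prostaglandin synthase Ptgs2 did not share in this, at 442 CPM [319, 598] and 380. Wfdc17 and Clec4e belong to this list and to another, so the lists are not independent counts.

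**Figure D2:**
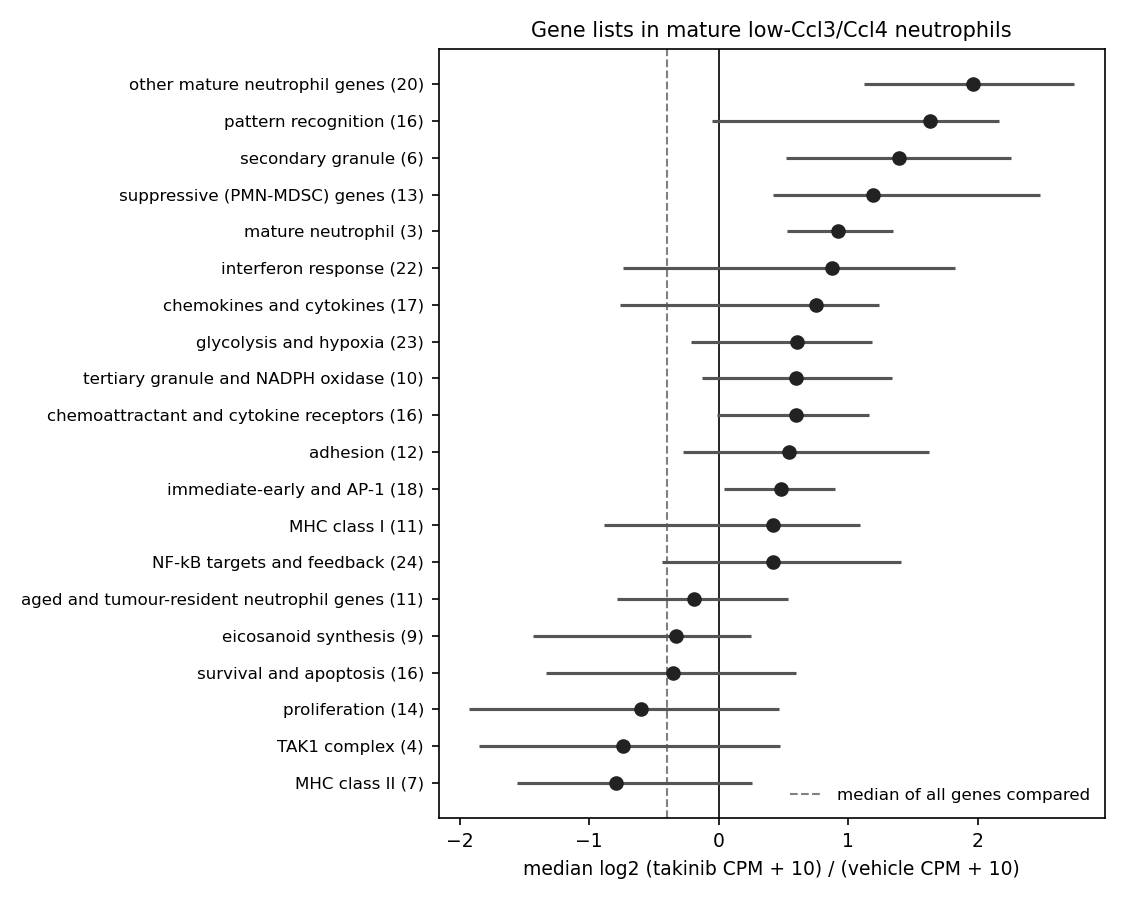
Median log2 ratio of takinib to vehicle over the genes of 20 lists in low-Ccl3/Ccl4 mature neutrophils (linear axis; number of genes in brackets; bars run between the medians of the genes' lower and upper 95% counting bounds). The dashed line is the median of all 3463 genes, -0.40; other mature neutrophil genes lie highest at 1.96 and MHC class II lowest at -0.79.

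Inflammatory outputs were next. Of 12 chemokine and cytokine genes outside the rule 4 were at least 2-fold higher and 2 lower, beside 9.33% and 21.8% of all genes. The list's median was 0.75 over 17 genes. Cxcl2, a chemokine that draws in neutrophils (chr5:90903871-90905938, plus strand), was at 4119 CPM [3721, 4548] in 48 of 71 vehicle cells and 15053 in 2791 of 2860 takinib cells, and at 85.8 and 2633 CPM in other cell types of these libraries. The chosen cells were thus 48.0 times above other cells in vehicle and 5.72 times in takinib. Ccl9, a CC chemokine, had 2 counts in vehicle, 21.1 CPM, and 95.8 CPM in takinib, close to the 88.7 CPM of other takinib cells. Il1a, an alarmin cytokine, was at 464 CPM [337, 622] in vehicle and 145 in takinib, a ratio of -1.61. Csf1, the growth factor of macrophages, was at 327 CPM [222, 464] and 127, a ratio of -1.30. The 2 genes that were lower, Il1a and Csf1, are cytokines, and the 4 that were higher, Cxcl2, Cxcl3, Cxcl10 and Ccl9, are chemokines. Cxcl10 had 1 count in vehicle, a fold of 5.21 [0.928, 206] that lay within counting error.

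NF-kB targets and feedback genes were higher in 6 of 21 cases and lower in 1, and 20 of 24 ratios lay above 0, with a median of 0.42. Traf1, a signalling adaptor, had 1 count in vehicle, 10.5 CPM, against 111 CPM, and Sod2, mitochondrial superoxide dismutase, was at 73.7 CPM [29.7, 152] and 461. Bcl2a1b, a survival gene, was at 748 CPM [584, 943] in vehicle and 356 in takinib, and the adhesion molecule Icam1 at 105 and 77.2. The Bcl2a1 genes are near-identical copies, so counts could be split among them. Transcripts of the TAK1 complex itself, the target of the drug, were sparse. Map3k7, which encodes TAK1 (chr4:31964097-32023467, plus strand), had 3 counts in vehicle, 31.6 CPM, and 21.6 CPM in takinib, Tab1 2 counts and 3.41 CPM, and Tab3 2 counts and 11.9 CPM. Tab2 was at 263 CPM [170, 389] and 129, a ratio of -0.98 [-1.53, -0.37]. The list's median was -0.74, and Map3k7, Tab1 and Tab3 did not differ beyond counting error.

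Immediate-early and AP-1 genes gave 2 of 16 higher, beside 9.33% of all genes, and 1 lower, with a median of 0.48. The phosphatase Dusp1 was at 1106 and 2956 CPM, and Ier5 at 622 and 303. Fosb was at 10.5 CPM (1 count) and 128, below the 39.0 and 153 CPM of other cell types. Of 12 interferon-response genes 6 were higher and 2 lower, with a median of 0.88. Ifitm1, which restricts virus entry and is abundant in neutrophils, was at 622 CPM [473, 802] in 14 vehicle cells and 8672 in 2673 takinib cells. The GTPase Gbp2 had 0 counts in vehicle and 121 CPM in takinib, at least 3.84-fold higher. Ifit3 and Rsad2, which report type I interferon, went the other way on few counts, at 52.7 CPM [17.1, 123] against 5.11 and at 73.7 CPM [29.7, 152] against 21.9. The list was thus split, with its most abundant member higher and 2 sparse members lower.

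The remaining lists came last. Glycolysis and hypoxia genes had a median of 0.60, with 2 of 21 higher, near the 9.33% of all genes. These were Pfkfb3 (21.1 CPM from 2 counts, and 211) and Bnip3 (116 and 305 CPM). Survival and apoptosis genes had 0 of 13 higher and 5 lower, with a median of -0.35 that became 0.05 once the median of all genes was set to 0. Among them the initiator caspase Casp8 was at 105 CPM [50.5, 194] and 36.5, and Mcl1, which keeps neutrophils alive, at 1254 CPM [1039, 1500] and 2196. Eicosanoid synthesis (median -0.33, 0.07 after that shift) had 1 of 6 genes higher and 2 lower. It included Alox5ap, the activator of 5-lipoxygenase, at 811 and 2694 CPM, and Ptgs1, constitutive cyclooxygenase, at 221 and 36.7. MHC class I genes had a median of 0.42 and class II genes -0.79; Cd74, the class II chaperone, was at 548 CPM [409, 718] and 277, below its 1554 and 895 CPM in other cell types. The list of aged and tumour-resident neutrophil genes had a median of -0.19, which became 0.21 after the shift, and proliferation genes had a median of -0.60 with 0 of 4 higher and 1 lower.

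The 12 genes with the highest ratios were Saa3, Csta2, Ifitm6, Chil1, Wfdc17, Nos2, Mmp8, Slc7a11, Stfa3, Prok2, Slpi and Fpr1. Saa3, an acute-phase serum amyloid (chr7:46711998-46715700, minus strand), had the highest, 84.3 CPM [36.4, 166] in 7 of 71 vehicle cells and 11128 in 2618 of 2860 takinib cells. It was also at 4233 CPM in takinib cells of other types, against 93.3 in vehicle, so it was the 1 gene of the 12 under 3 times the level of other cells in its library. Slpi, an inhibitor of neutrophil elastase (chr2:164354070-164389095, minus strand), was at 169 CPM [96.3, 274] and 2838, and at 769 CPM in other takinib cells. Several were barely or not seen in vehicle. Csta2 and Stfa3, cystatin-type protease inhibitors, had 0 counts there against 330 and 166 CPM, at least 10.4- and 5.25-fold higher, and Prok2, a prokineticin that attracts leukocytes, 0 counts against 153 CPM, at least 4.85-fold higher. Csta2 and Stfa3 belong to a cluster of like genes among which reads can be split. Ifitm6, Chil1 and Slc7a11, the cystine transporter, had 1 count each against 672, 558 and 422 CPM, folds of 63.8 [11.4, 2520], 53.0 [9.5, 2092] and 40.1 [7.18, 1583].

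The 12 lowest ratios belonged to Rgs5, Hist1h1d, Ccn3, Prss2, Try5, Ctrb1, Cebpe, Siglecf, Ltc4s, Creb5, H1f0 and Mtss1. Siglecf (chr7:43351341-43359531, plus strand), a sialic-acid-binding receptor of eosinophils that also marks a tumour-resident neutrophil state, was at 379 CPM [266, 525] in vehicle and 33.7 in takinib, a ratio of -3.16 [-3.65, -2.63]. It was found in 27 of 71 vehicle cells and 150 of 2860 takinib cells, and with every cell thinned to 1000 UMIs in 29.6% [19.3, 41.6] and 3.22% [2.60, 3.93]. Other cell types gave 0.501% and 0.357% after the same thinning, at full median depths of 5111 and 6690 UMIs. The level of free RNA was not measured in takinib. The other eosinophil markers Il5ra, Ccr3, Epx, Prg2 and Ear1 had 0 counts in the vehicle cells, and of the 27 Siglecf-positive vehicle cells 15 held Csf3r, against 29 of all 71, and 4 held Retnlg, against 11 of all 71. Ltc4s, leukotriene C4 synthase, was at 306 CPM [205, 439] and 27.6, the latter no higher than the 30.1 CPM of other takinib cells. Cebpe, a transcription factor of granule formation (chr14:54710360-54712174, minus strand), was at 169 CPM [96.3, 274] in 10 of 71 cells and 9.65, and the linker histones Hist1h1d and H1f0 at 400 and 369 CPM against 10.2 and 37.3.

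Part of the low set is not made of neutrophil genes. The pancreatic digestive enzymes Prss2, Try5 and Ctrb1 were at 147, 126 and 358 CPM in vehicle neutrophils and at 123, 39.8 and 450 CPM in vehicle cells of other types, and all were lower in takinib neutrophils, at 1.89, 0.378 and 20.6 CPM. Takinib cells of other types held them at 114, 90.9 and 706 CPM. Rgs5, a pericyte gene, owed 55 of its 59 vehicle counts to 1 cell. Without the top cell of each library its ratio moved from -4.62 to -2.23. The direction of Siglecf, Creb5, Ltc4s and Hist1h1d did not hang on 1 cell, with top cells giving 8.33% to 16% of vehicle counts.

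**Figure D3:**
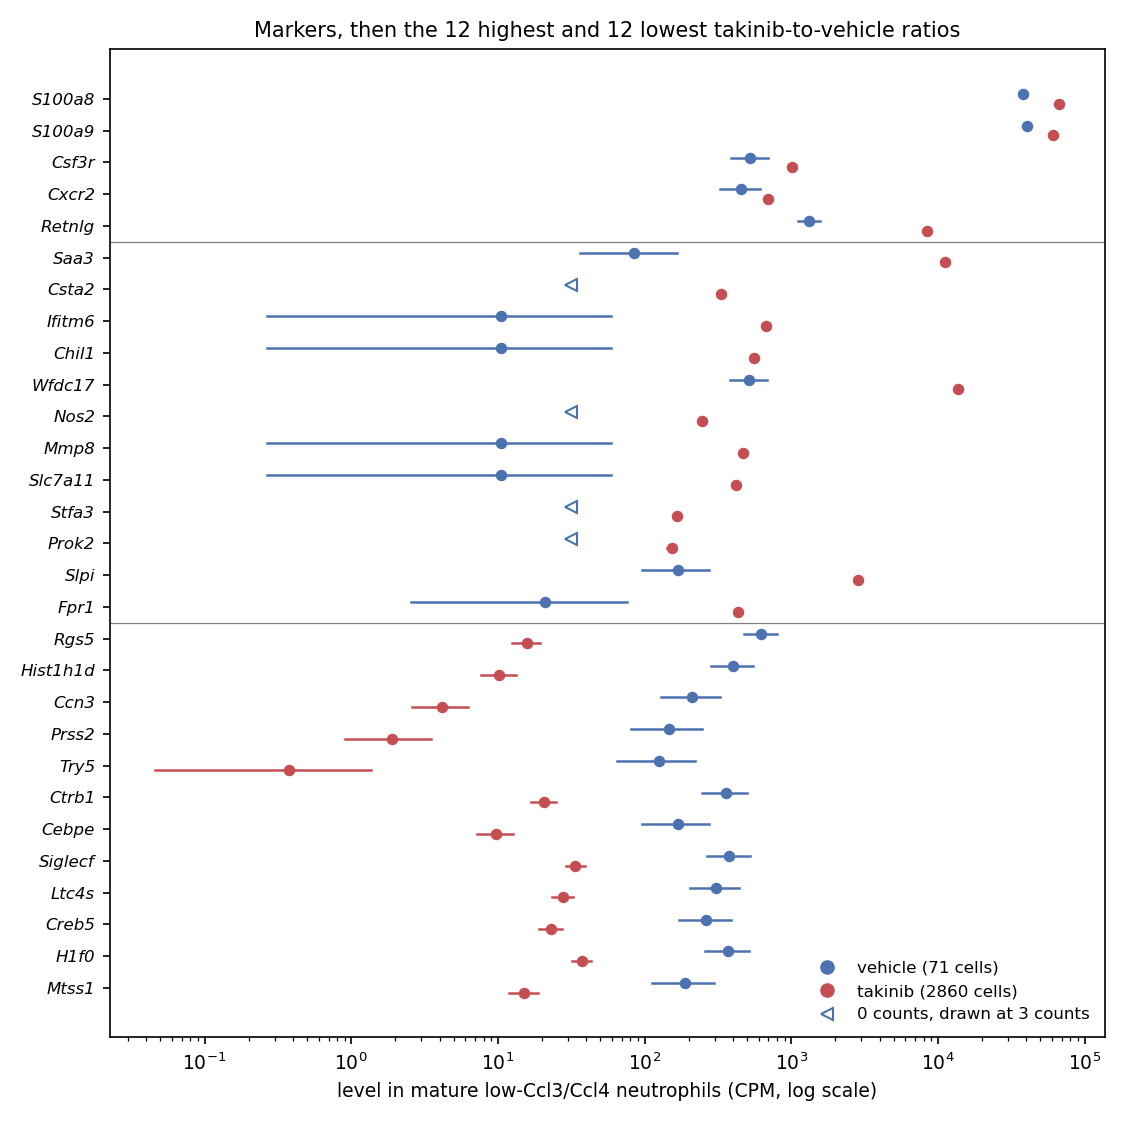
Levels in low-Ccl3/Ccl4 mature neutrophils (CPM, log axis) of the 5 markers and of the genes with the 12 highest and 12 lowest takinib-to-vehicle ratios, in vehicle (blue, 71 cells) and takinib (red, 2860 cells), 1 library each. Bars are exact 95% Poisson intervals, and open triangles stand for 0 counts drawn at the level of 3; Saa3 goes from 84.3 to 11128 and Siglecf from 379 to 33.7.

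Markers of other cells moved with the treatment as well, and their part in the values above was not tested. Macrophage markers (10 genes, 0 of them at 0) summed to 1454 CPM in vehicle and 948 in takinib neutrophils, and monocyte markers (6 genes, with Ms4a4c at 0 in vehicle) to 611 and 817. Erythroid markers (5 genes) summed to 10.5 CPM in vehicle, where Hba-a1, Hba-a2, Hbb-bs and Alas2 were at 0, and to 4845 in takinib. Endothelial and perivascular markers (7 genes, Kdr and Egfl7 at 0 in vehicle) summed to 748 and 37.7 CPM, mostly through Rgs5. Dendritic cell markers were all 6 at 0 in vehicle and summed to 5.11 CPM in takinib, and epithelial markers (8 genes, Epcam at 0 by the rule) to 284 and 155. Leaving out the 3 vehicle and 161 takinib cells with at least 3 UMIs of a non-myeloid list, an alternative chosen after seeing the data, gave 337 genes higher and 685 lower.

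Within each library the chosen cells spanned a wide range of S100a8 and S100a9. The quartiles were 4.09% and 9.34% of UMIs in vehicle (median 6.06%) and 6.66% and 17.6% in takinib (median 11.4%). Retnlg followed this range in takinib, from 1575 CPM in cells at 3% to 4% to 20373 in cells at 24% or more, while Csf1 went from 216 to 23.9 and Siglecf from 49 to 6.53. Vehicle cells showed Retnlg at 410 CPM between 4% and 8% (30 cells) and at 6321 between 12% and 16% (6 cells), but the 47 counts of the latter bin all came from 1 cell. At matched shares of 4% to 8% the libraries still stood apart, with 30 vehicle and 714 takinib cells. Retnlg was at 410 and 2544 CPM there, Cd14 at 145 and 2661, and Siglecf at 483 and 43.2. Cells just outside the rule, between 2% and 3%, had Siglecf at 480 CPM in vehicle and 28.6 in takinib, so that this gene did not change abruptly at the limit in vehicle.

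**Figure D4:**
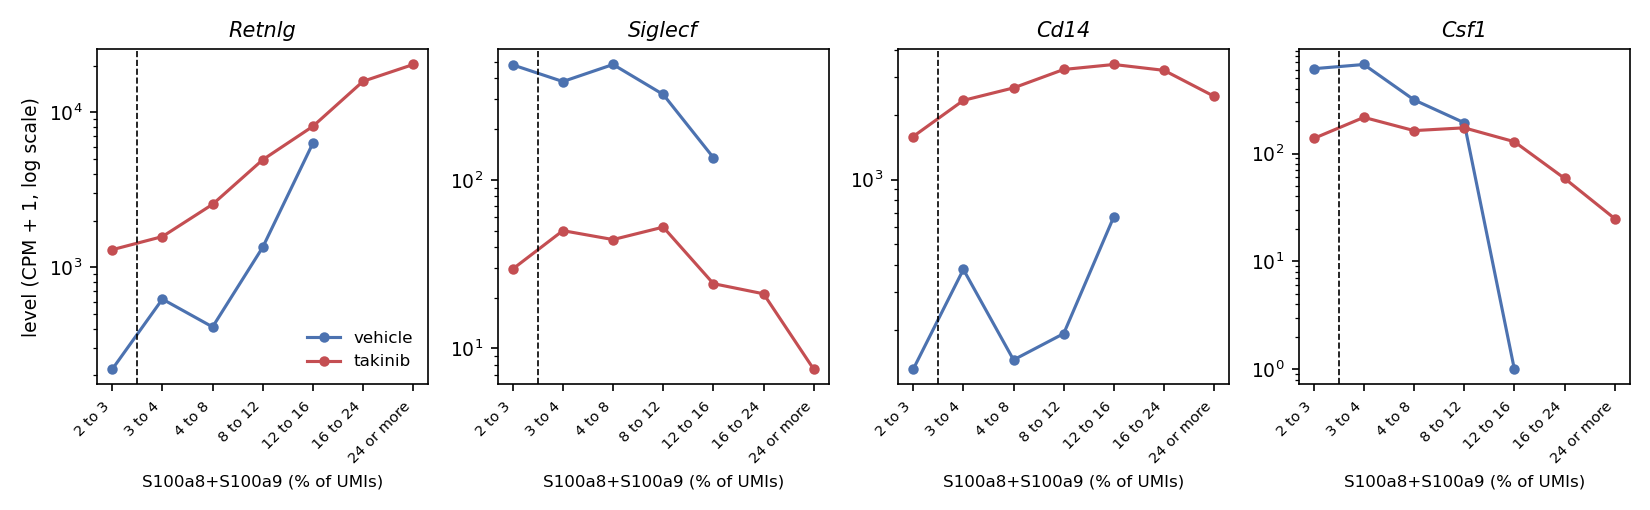
Levels of Retnlg, Siglecf, Cd14 and Csf1 (CPM plus 1, log axes) in cells binned by the share of S100a8 and S100a9 in their UMIs (%), in vehicle (blue) and takinib (red), 1 library each, no error bars. The dashed line is the 3% limit of the rule; between 4% and 8% Siglecf is at 483 CPM in vehicle and 43.2 in takinib, and Cd14 at 145 and 2661.

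The same cells were next set against chemokine-rich mature neutrophils, within takinib only, since vehicle held 23 of those. Ccl3 (chr11:83647844-83649355, minus strand) and Ccl4 (chr11:83662584-83664683, plus strand) made the split and are not compared. Low-chemokine cells were at least 2-fold lower in 7 of 14 other chemokine and cytokine genes and in 7 of 22 NF-kB targets and feedback genes, and at least 2-fold higher in Cxcr2 and in 1 of 20 other mature neutrophil genes. Of 2463 genes, 32 (1.3%) were at least 2-fold higher in them and 51 (2.07%) at least 2-fold lower, 7 and 87 with the median ratio of 0.16 set to 0. Because both kinds come from 1 library they share its animals and free RNA, but chemokine-rich cells were deeper, with a median of 2311 UMIs against 1539.

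Lowest were Cxcl1, Csf3, Il1a, Atf3, F3, Cd274, Saa1 and Tnf. Il1a was at 145 CPM in low-chemokine and 557 in chemokine-rich cells, a ratio of -1.87 [-1.97, -1.77], and Tnf at 108 and 315. Cd274, which encodes the T-cell inhibitory ligand PD-L1, was at 140 and 427 CPM, and F3, tissue factor, at 38.0 and 149. The neutrophil chemokine Cxcl1 was at 14.6 and 84.5 CPM and Csf3, which encodes G-CSF, at 10.2 and 65.7. NF-kB targets and feedback genes had 7 of 22 lower and 0 higher, with 23 of 24 ratios below 0 and a median of -0.84. Tnfaip3, the A20 feedback inhibitor, was at 286 and 643 CPM, Nfkbia, which encodes IkB-alpha, at 1940 and 3198, and Icam1 at 77.2 and 188. Chemokines and cytokines had 7 of 14 lower and a median of -0.45, with Il1b as an even gene at 6804 and 7006 CPM. Glycolysis and hypoxia genes had 5 of 22 lower and a median of -0.49.

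Higher were Ins2, Iapp, Ins1, Lrg1, R3hdm4, Cxcr2, Rflnb and Mtus1. The first 3 are hormone genes of pancreatic beta cells and owed 96.9%, 97.9% and 91.1% of their UMIs to 1 cell. Lrg1, a glycoprotein of neutrophil granules, was at 892 and 376 CPM, and Cxcr2 at 695 and 300, a ratio of 1.18 [1.13, 1.24]. Retnlg (8432 and 4690 CPM), Csf3r (1007 and 708) and Ifitm1 (8672 and 5095) were also higher, by less than 2-fold. The 3 mature markers had a median of 0.85, while the 20 other mature neutrophil genes had one of 0.10, which became -0.06 after setting the median of all genes to 0. The 2 kinds thus differed in Cxcr2 and Retnlg more than in mature genes at large.

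Promoters of 4 genes are printed to show where matches to the NF-kB consensus lie. They were chosen because they hold one: Nfkbia and Tnfaip3 are in the NF-kB list, and Cxcl1 and Cxcl2 are chemokine genes outside it. The windows are the 150 bases before the RefSeq start site (GRCm38.p6), 5′ to 3′ on the gene's strand, with capitals marking matches to the NF-kB consensus on either strand: Cxcl1 (chr5:90891095-90891244, plus), Cxcl2 (chr5:90903749-90903898, plus), Nfkbia (chr12:55492648-55492797, minus) and Tnfaip3 (chr10:19015411-19015560, minus).
Cxcl1: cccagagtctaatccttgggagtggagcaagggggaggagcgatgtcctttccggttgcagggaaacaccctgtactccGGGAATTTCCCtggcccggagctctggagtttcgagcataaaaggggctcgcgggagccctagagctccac
Cxcl2: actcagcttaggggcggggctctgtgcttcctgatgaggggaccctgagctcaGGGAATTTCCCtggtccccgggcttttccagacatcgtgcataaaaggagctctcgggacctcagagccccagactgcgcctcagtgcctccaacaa
Nfkbia: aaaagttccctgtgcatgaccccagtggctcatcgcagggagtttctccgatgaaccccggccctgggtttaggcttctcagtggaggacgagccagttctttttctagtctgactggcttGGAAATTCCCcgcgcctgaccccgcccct
Tnfaip3: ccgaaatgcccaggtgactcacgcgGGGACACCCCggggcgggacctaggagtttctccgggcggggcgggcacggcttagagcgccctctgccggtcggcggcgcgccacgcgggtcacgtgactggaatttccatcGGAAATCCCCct
Cxcl1 and Cxcl2, which are neighbours on chromosome 5, carry the same matched stretch, read as 2 overlapping matches that start 71 and 97 bases before their start sites. Over windows of 300 bases around the start sites, 10 of the 20 NF-kB list genes in the RefSeq table, and 12 of their 25 promoters (48%), held a match, against 2779 of all 32851 promoters (8.46%). Of the 8 genes with the lowest ratios together with Ccl3 and Ccl4, 8 were in the table and 1, Cxcl1, held a match (12.5% of promoters), and of the 8 with the highest ratios 6 were in it and 0 held one. The windows of Il1a, Tnf and Icam1 held none. A match describes letters only, and the list was made of known NF-kB targets.

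Sorting takinib mature cells by their Ccl3 and Ccl4 UMIs showed a slope and no step at the limit of 5. The genes followed were picked with their values known. From cells with 0 such UMIs (1284 cells) to those with 50 or more (1879 cells), Cxcl2 went from 14022 to 44146 CPM, Il1a from 103 to 731, Tnf from 77.3 to 427 and Tnfaip3 from 228 to 760. In the same order Cxcr2 went from 873 to 283 CPM, Retnlg from 10008 to 4479 and Ifitm1 from 10252 to 4834. At the limit itself, cells with 4 and with 5 UMIs had Cxcl2 at 18131 and 19655 CPM and Cxcr2 at 445 and 387. Lcn2 differed most inside the low-chemokine range, from 5501 CPM at 0 UMIs to 12174 at 4, and 13064 at 50 or more. Il1b was at 7110 and 7539 CPM at the ends. Among cells of 1500 to 2500 UMIs alone, Cxcl2 went from 15992 CPM at 0 UMIs to 38541 at 10 or more and Cxcr2 from 864 to 249, so both slopes were seen at near-equal depth (medians of 1814 and 1929 UMIs).

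**Figure D5:**
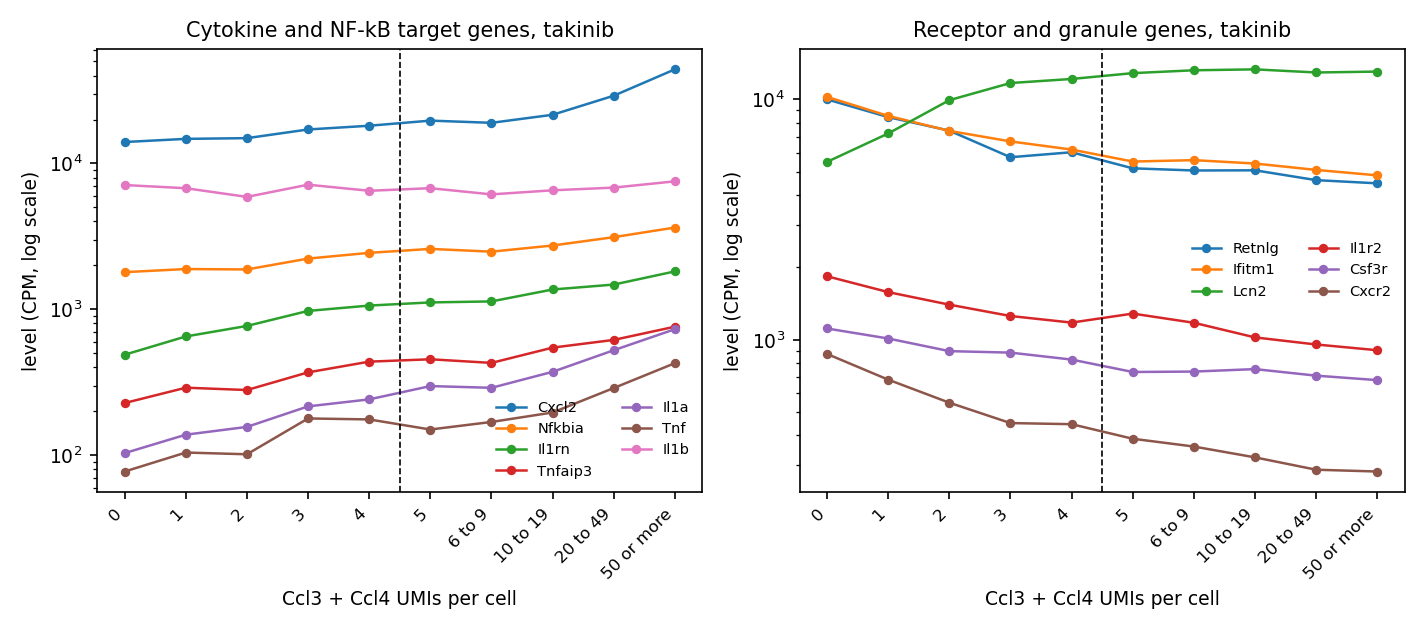
Levels in takinib mature neutrophils (CPM, log axes) of cytokine and NF-kB target genes (left) and of receptor and granule genes (right) against the number of Ccl3 and Ccl4 UMIs per cell, 1 library, no error bars. The dashed line is the limit of the rule between 4 and 5 UMIs; Cxcl2 goes from 14022 to 44146 and Cxcr2 from 873 to 283 with no step at the line.

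Immature neutrophils, taken as cells with at least 10 Camp, Ngp and Ltf UMIs, numbered 637 in takinib and 13 in vehicle, and were compared in takinib only. Relative to them the low-chemokine mature cells were at least 2-fold lower in 6 of 7 proliferation genes and 4 of 6 secondary granule genes. They were at least 2-fold higher in 4 of 4 MHC class II, 7 of 16 immediate-early and 5 of 16 receptor genes. Of 7 MHC class I genes 0 were past 2-fold, but all 11 ratios of that list lay above 0. Its median was 0.69, beside 0.73 for receptors. Of 2475 genes 166 (6.71%) were at least 2-fold higher and 112 (4.53%) at least 2-fold lower, which turned to 64 and 163 with the median ratio of 0.31 set to 0 and to 120 and 170 with S100a8 and S100a9 left out of the totals. The immature cells were far deeper, with a median of 5459 UMIs, and 27.4% of a median cell's UMIs came from S100a8 and S100a9.

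Lowest were Serpinb1a, Adpgk, Itgb2l, Ifitm6, Ube2c, Fcnb, Cebpe and Aldh2. Serpinb1a, an inhibitor of neutrophil serine proteases, was at 24 CPM in mature low-chemokine and 490 in immature cells, a ratio of -3.88 [-4.07, -3.68]. Fcnb, a ficolin made in the marrow, was at 1.51 and 74.5 CPM, Cebpe at 9.65 and 122, and Ifitm6 at 672 and 5553. Of 6 secondary granule genes outside the rule 4 were lower, with a median of -1.07, including Cd177 at 182 and 1124 CPM. Of 7 proliferation genes 6 were lower, with a median of -1.63, among them Top2a at 13.1 and 125 CPM and Mki67 at 26.9 and 174.

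Highest after the hormone genes of the single cell were Sirpb1c, Sirpb1b, Igfbp6, Oasl2 and Tspan13. The signal-regulatory receptors Sirpb1b and Sirpb1c, near-copies between which reads can be split, were at 202 and 237 CPM against 46.3 and 54.8. Csf3r was at 1007 and 309 CPM and Cxcr2 at 695 and 320, while Retnlg was level at 8432 and 8290. All 4 MHC class II genes compared were higher, with a median of 1.36, among them Cd74 at 277 and 78.2 CPM, but takinib cells of other types held Cd74 at 895 CPM and H2-Aa at 277 against 87.4 in these cells. The part of free RNA and of the 5459 against 1539 UMIs of median depth in this was not tested. Immediate-early and AP-1 genes had 7 of 16 higher and a median of 0.91, and interferon-response genes 6 of 10 and 0.71, both kept above 0 by setting the median of all genes to 0. Il1b was at 6804 and 2217 CPM, while Il1a (145 and 147 CPM) and Atf3 (84.4 and 85.7) were level. The mature low-chemokine cells thus lay above immature cells in Il1b and below chemokine-rich cells in Il1a, Tnf and Cxcl2.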

How the data were processed

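Both tumours were measured by droplet single-cell RNA sequencing, labelled 10x Genomics. The deposited matrices hold unnormalised UMI counts for 32285 genes, made with Cell Ranger 4 for vehicle and 6.1.1 for takinib per the file headers. The submitters' processing notes instead list Cell Ranger 2.1.1, with STAR 2.0.4b, featureCounts 1.45 and mm10, without saying which step made which file. No takinib barcode holds under 500 UMIs, while the vehicle matrix also lists empty droplets.

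The same filters and rule were then applied to both libraries, with no clustering and no doublet removal in the values reported. Counts were summed over the chosen cells of each library and scaled to CPM, and 10 CPM was added before log2 ratios. Intervals are exact Poisson for counts, Clopper-Pearson for shares and exact conditional binomial for ratios, at 95%. UMI totals of 94925 and 5284316 lie behind the values. Cells are not replicates and no count model was fitted; the ratio step was tested on simulated data. Genes past 2-fold were counted among those of at least 50 CPM, leaving out the genes of the rule. Named genes are the 12 highest and 12 lowest ratios (8 and 8 between kinds of neutrophil), without mitochondrial, ribosomal, haemoglobin, immunoglobulin, sex-linked and unnamed models, plus the mature marker and TAK1 complex lists and the 2 highest and 2 lowest of every other list; others were picked with values known. The members and lists were chosen with earlier results of these data known. Lists were counted over genes of at least 10 summed counts. Gene positions come from GENCODE M21 by gene ID (370 of 370 matched). Tools were numpy 2.4.6, scipy 1.17.1, pandas 2.3.3 and, for doublet scores used only as an alternative, scanpy 1.11.5. Clec7a was not analysed here, and 1 gene that the naming rule picks is not reported here.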

Additional observations from a re-analysis of the deposited data

How the results depend on the processing

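With 1 library per group no replicate could be left out and no setting bears on differences between animals; the vehicle values rest on 71 cells. The log2 ratio of the shares, 3.89, stayed above 0 whenever all kept barcodes were the denominator: it was 4.53 with S100a8 and S100a9 at 6% or more, 5.52 at 10%, 3.39 with 0 Ccl3 and Ccl4 UMIs, 5.97 at 2000 UMIs (3 vehicle cells), 3.23 at 500 UMIs, 6.15 with a mitochondrial limit of 10% (9 vehicle cells) and 4.38 with a UMI of Csf3r, Cxcr2 or Retnlg required. It was -1.22 with the S100-rich barcodes as denominator. No paired analysis was possible because each group has 1 library.

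Genes higher in takinib than in vehicle numbered 180 with 50 CPM added, 564 with the median set to 0, 872 from 1 count, 127 from 200 CPM, 582 at 10% S100a8 and S100a9 (13 vehicle cells) and 636 against the 14 vehicle cells with Y-linked UMIs. In the same order genes lower numbered 196, 379, 1789, 117, 2150 and 2189, and also 1317 without mitochondrial and ribosomal genes and 457 at 500 UMIs. Against chemokine-rich cells, genes higher numbered 59 with 1 CPM added, 6 with 50, 7 with the median at 0, 11 from 200 CPM and 61 at 10% S100, and genes lower 24 with 50 CPM added, 87 with the median at 0, 30 from 200 CPM and 29 after thinning. Against immature cells, genes higher numbered 64 with 50 CPM added and with the median at 0, 78 from 200 CPM and 436 after thinning, and genes lower 50 with 50 CPM added, 170 without S100a8 and S100a9, 208 from 1 count and 32 from 200 CPM.

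Single genes that changed direction were Ccn3 (0.50), Prss2 (0.25) and Try5 (0.054) against the Y-linked vehicle cells, Prss2 (0.27) and Tab1 (0.46) at 10% S100, and Ins2 against chemokine-rich cells at 10% S100 (-0.00022). Lists that did so against chemokine-rich cells were other mature genes with the median at 0 (-0.056) and at 2000 UMIs (-0.22), receptors (-0.030) and AP-1 (-0.092) at 2000 UMIs, and, against immature cells, glycolysis with the median at 0 (-0.21) and without S100a8 and S100a9 (-0.12). The cause was not tested. Gene ratios were not computed where vehicle held fewer than 10 cells (2000 UMIs, mitochondrial limit of 10%, Xist-bearing cells).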

Other observations

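Haemoglobin transcripts differed between the low-chemokine neutrophils of the libraries. Hbb-bs, a beta-globin gene of red cells, had 0 counts in the 71 vehicle cells and 3666 CPM in takinib, at least 116-fold higher with vehicle set at 3 counts. It was found in 642 of 2860 takinib cells, and 1 cell gave 7.56% of its UMIs. Takinib cells of other types held erythroid markers at 799 CPM in sum and vehicle cells of other types at 27.4.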
